A study of Rattus norvegicus with 6 samples.

Results

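The 3′-ends described here are those that aptardi, a machine-learning tool that adds polyadenylation sites to an assembled transcriptome, placed at least 1000 bases upstream of the end of the transcript it started from. Each aptardi isoform in the deposited rat annotation keeps the splice structure of 1 original transcript, its parent, and ends elsewhere. Of 11559 aptardi isoforms, 4440 were shortened by 1000 bases or more, 3024 were shortened by less, and 4095 ended beyond their parent. The choice used positions in the annotation only, and no count or TPM entered it directly. According to the study's methods, StringTie and aptardi set these positions with the merged reads of the same libraries. Which end was higher in these libraries is therefore not independent of where the ends were placed. The nearest pairs to the limit were an isoform of Sfxn5 shortened by exactly 1000 bases, and an isoform on chromosome 1 shortened by 998 bases, which was left out. The mean share of the short end, defined below, was 86.9% in BNLx and 85.4% in SHR for the first, and 24.9% and 42.9% for the other.

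Alternative polyadenylation gives transcripts of 1 gene different 3′-ends. Where both ends lie in the last exon, the encoded protein usually stays the same, and the shorter 3′ untranslated region lacks binding sites for microRNAs and RNA-binding proteins that the longer one carries. The choice of end is made when the cleavage and polyadenylation machinery cuts the nascent RNA at a proximal or at a distal site. Brain is known for long 3′ untranslated regions and for frequent use of distal sites.

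RNA came from whole brains of naive male rats of 2 inbred strains, 3 animals in each: BN-Lx/CubPrin (BNLx), a congenic Brown Norway line, and SHR/OlaIpcvPrin (SHR), a line of the spontaneously hypertensive rat. No animal was treated, and their age is not given in the sources used here. PolyA-selected libraries were read as pairs of 100 bases over 3 lanes, and which library ran in which lane is not given. A whole brain mixes many cell types, so that fewer cells of a type and less RNA per cell cannot be told apart in any value below. The libraries held from 11747048 expected counts (BNLx replicate 2) to 41333079 (SHR replicate 1). Brain markers were present in each library: the summed TPM (transcript abundance per length and library) of the neuronal genes Snap25, Syt1 and Stmn2 ran from 2997 to 4752 in BNLx and from 2195 to 3557 in SHR. Astrocyte markers (Slc1a3, Gja1 and S100b, 3 of 6 listed found by symbol) summed to 1831 to 2185 TPM in BNLx and 1594 to 1707 in SHR, and microglial markers (Cx3cr1, P2ry12, Aif1 and C1qa, 4 of 6) to 144.8 to 151.8 and 159.1 to 221.2. The strains did not overlap in either sum, and their part in the strain comparisons below was not tested. None of the choroid plexus, blood or pituitary markers looked for had a symbol in the annotation.

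In the balance of the 2 ends, SHR replicate 1 and BNLx replicate 3 stood somewhat apart from their strain mates. Across the shortened pairs, the share of the short end in SHR replicate 1 followed BNLx replicate 1 (Pearson r = 0.903 over 3615 pairs) more closely than SHR replicate 2 (0.847) or SHR replicate 3 (0.842), and BNLx replicate 3 lay at 0.844 and 0.807 with its own strain and at 0.831, 0.828 and 0.826 with SHR. These coefficients run across pairs within the same 6 libraries and are descriptive. The main counts of calls are given with and without these 2. They stand apart in the same data that are tested, so counts without them are no independent support for a strain difference. Leaving out a library that lies near the other strain can by itself raise the calls between strains.

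The 4440 shortened isoforms lay in 1713 loci and came from 3334 parents. They held 2513 distinct 3′-ends, because 1016 ends were shared by 2 or more isoforms of a locus, and 613 parents had 2 such ends. The shortening ran from 1000 to 28161 bases, with a median of 2652.5. The last exon had a median length of 4326.5 bases in the parent, and the short isoform kept a median of 27.4% of it. The last exon of all 4440 short isoforms was a whole multiple of 100 bases long, the bin width in which aptardi searches, against 42 of their parents. Every short isoform had its parent's intron chain. The exact position of an end is therefore known only to about 1 bin.

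These ends were unevenly spread over the genome. They made up 25.99% of aptardi isoforms on chromosomes 2 to 9 (1799 of 6922) and 56.95% on chromosomes 1 and 10 to 16 (2641 of 4637). The 2 sets of chromosomes did not overlap, with 21.99% to 32.08% per chromosome in the first and 48.1% to 60.44% in the second. Ends beyond the parent ran the other way, at 50.22% and 13.35%. The original transcripts of chromosomes 2 to 9 include 9578 that carry an Ensembl reference identifier, whereas the 18365 original transcripts of chromosomes 1 and 10 to 16 include 0. Chromosomes 17 to 20, X and Y held no aptardi isoform. The part that the missing reference transcripts have in the uneven spread was not tested.

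**Figure D1:**
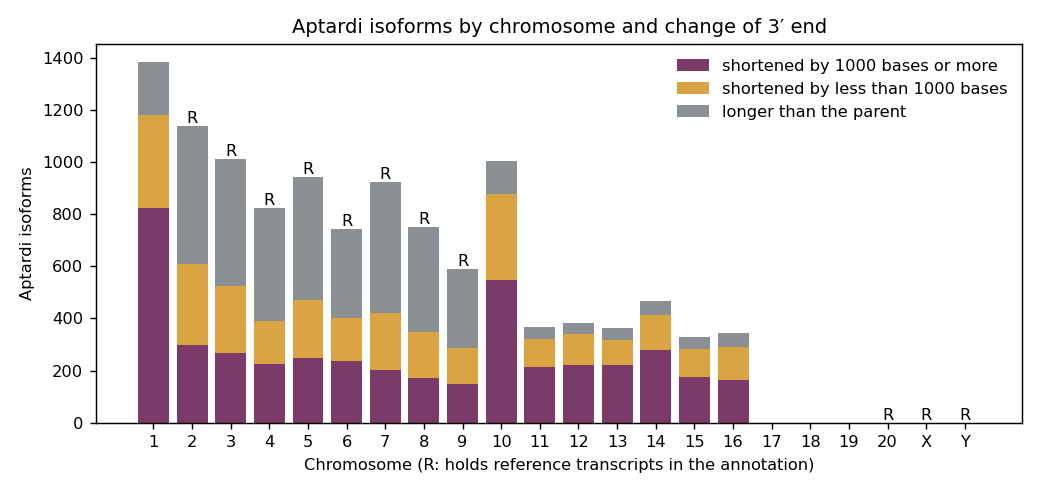
Number of aptardi isoforms on each chromosome (vertical axis), stacked by the change of the 3′-end, with R above chromosomes whose original transcripts include reference transcripts. Chromosome 1 held 823 isoforms shortened by 1000 bases or more and 205 that ended beyond the parent, and chromosome 2 held 298 and 532.

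Gene symbols come from reference transcripts, so that 1188 short isoforms of 519 genes on chromosomes 2 to 9 could be named and the 2641 on the other chromosomes could not. On chromosomes 2 to 9, the parent itself was a reference transcript for 269 of 1799 short isoforms (14.95%), and the short end lay within 100 bases of the end of a reference transcript for 376 (20.9%). An exon of another locus on the opposite strand lay in the removed stretch of 1371 of the 4440 isoforms (30.88%), against 439 of the 3024 isoforms shortened by less (14.52%), a stretch that is shorter by construction. That share was 16.62% on chromosomes 2 to 9 and 40.59% on chromosomes 1 and 10 to 16. The libraries do not keep the strand, so reads from such an exon and from the long end of the parent cannot be told apart.

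The first question was which of the 2 ends carried the expression. For each pair, the share of the short end is its TPM divided by the TPM of short and parent end together, a value per length. A pair was tested where both ends together had at least 50 counts in 2 of 3 animals of a strain, which 3710 of the 4440 did and 730 did not. In a paired edgeR quasi-likelihood fit over all 9240 aptardi pairs past this limit, the short end was above the parent per length in 1455 pairs (39.22%) and the parent above the short end in 720 (19.41%), at a Benjamini-Hochberg adjusted p of 0.05. Over all aptardi pairs these shares were 34.3% and 20.0%. The short end had the higher TPM in each of the 6 libraries in 1557 pairs (41.97%), and the parent in 946 (25.5%), against 39.8% and 25.8% of all aptardi pairs.

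Both counts depended on the libraries and on pairs with an end at 0. Rounded counts were 0 in all 6 libraries at the short end in 537 pairs and at the parent end in 245, and these gave 385 of the 720 and 171 of the 1455 calls. Among the 2928 pairs with both ends seen, 1284 had the short end above and 335 the parent above. Leaving out BNLx replicate 1 or 2 lowered the count of short ends above the parent to 747 or 842, leaving out SHR replicate 2 or 3 lowered it to 772 or 763, and none of these calls had a parent at 0. The count of parents above the short end was 48, 60, 41 and 35 in the same 4 fits and 398 with BNLx replicate 3 left out. Without SHR replicate 1 and BNLx replicate 3 together, the counts were 1106 and 598. The short end was thus called more often than the parent in each of these fits, whereas the number of parents called above the short end changed by over 10 times.

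The 2 sets of chromosomes differed in this respect. On chromosomes 2 to 9, the short end was above the parent in 402 of 1482 pairs (27.13%) and below it in 395 (26.65%), and on chromosomes 1 and 10 to 16 in 1053 (47.26%) and 325 (14.59%) of 2228. The median over pairs of the mean share was 39.11% and 77.75%.

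**Figure D2:**
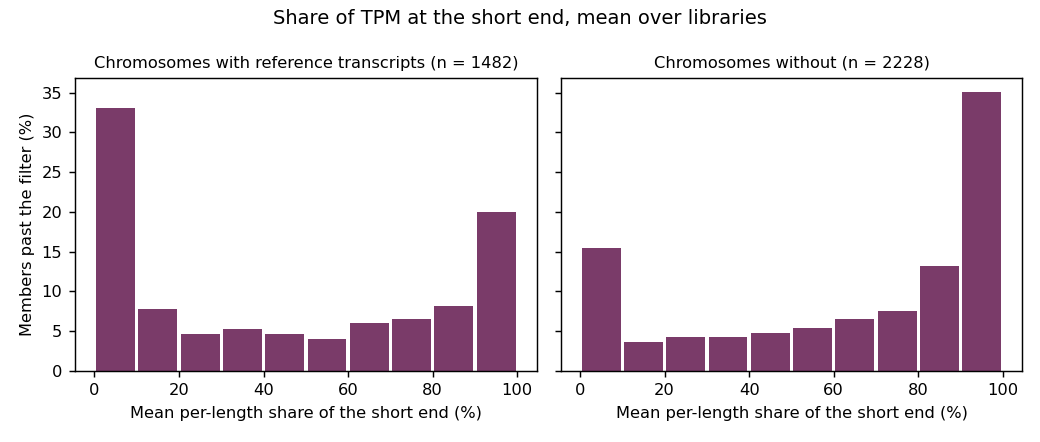
Distribution of the mean share of the short end over 6 libraries (horizontal axis, % of the TPM of short and parent end) among pairs past the count limit, as a percentage of pairs (vertical axis), for chromosomes with and without reference transcripts. The lowest bin holds 33.1% and 15.5% of pairs and the highest 20.0% and 35.1%, so that most weight lies at either extreme.

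The genes with the largest per-length excess of the short end, among pairs with both ends seen in each library, were Sub1, Tceal6, Srsf7, Olfm2, Ypel4 and Mrps35. Sub1 encodes a single-stranded DNA-binding transcriptional coactivator. Its short end (STRG.8095.2.1, chr2:62022596-62034704 in rn6, minus strand) lay 3767 bases before that of the parent and within 100 bases of a reference end. It had 2724, 900 and 655 counts in BNLx and 3206, 1441 and 1454 in SHR, against 36.4, 8.07 and 4.03 and 28.2, 16.1 and 24.3 at the parent end. The short end thus exceeded the parent in every animal, with a log2 per-length ratio of 9.58 ± 0.42 (SE, edgeR, adjusted p = 0.000978, n = 3 per strain). Srsf7, a splicing factor of the serine/arginine-rich family, had a short end (STRG.23206.5.2, chr6:2879312-2886465, minus strand) of 638, 181 and 297 counts in BNLx and 362, 237 and 271 in SHR, and at most 4.68 counts at the parent end 1020 bases downstream. All 6 tested short isoforms of Srsf7 were above their parent, but they share exons and are not independent. Olfm2, which encodes a secreted olfactomedin of the nervous system, and Ypel4 had log2 ratios of 7.33 ± 0.42 and 7.32 ± 0.42, for ends shortened by 3025 and 1773 bases. Mrps35, a protein of the small mitochondrial ribosomal subunit, lay at 7.08 ± 1.00, and Tceal6 at 7.82 ± 0.43.

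The reverse was seen in 1 pair each of Ubl5, Actr1b, Eif5, Srsf6, Map2k2 and Hs2st1, with smaller ratios. The short ends of Ubl5, Actr1b and Map2k2 lay within 100 bases of the end of another reference transcript, whose counts are not in these ratios. Pairs of Srsf6 disagreed: of 6 tested, 3 had the parent above and 1 the short end, with mean shares from 20.25% to 72.9%. Actr1b encodes a subunit of dynactin, which links dynein to its cargo. Its parent end had 7735, 2951 and 2308 counts in BNLx and 8373, 3987 and 4225 in SHR, and the short end 1039 bases upstream (STRG.34053.1.1, chr9:43268096-43276685, minus strand) 828, 5.41 and 172 and 734, 939 and 780. The short end was below the parent in each animal, and its value in BNLx replicate 2 was far below the other 5. The log2 per-length ratio was -3.16 ± 0.91 (adjusted p = 0.0375). Ubl5, a ubiquitin-like protein of the spliceosome, gave -3.29 ± 0.73. Eif5, the translation initiation factor that triggers GTP hydrolysis on the scanning ribosome, gave -2.60 ± 0.52. Map2k2, a kinase upstream of the MAP kinases ERK1 and ERK2, gave -2.46 ± 0.34, and Hs2st1, an enzyme of heparan sulfate sulfation, gave -2.34 ± 0.61. Adjusted p rose above 0.05 on leaving out 1 library for Ubl5, Actr1b, Eif5, Srsf6 and Hs2st1, and to at most 0.0977 in any of these fits or without SHR replicate 1 and BNLx replicate 3 together, but not for Map2k2 or for the 6 genes with the short end above.

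The 4 named genes with most counts showed both extremes. Eef1a1, which brings aminoacyl-tRNA to the ribosome, had a short end (STRG.31809.1.1, chr8:85838594-85841911, minus strand) 2942 bases before the parent's, with 37389, 11050 and 17635 counts in BNLx and 62245, 23322 and 28744 in SHR. Its share was between 93.5% and 95.8% in the 6 libraries. Camk2n1, an inhibitor of the kinase CaMKII, Enc1, an actin-binding protein of neurons, and Myo5a, a motor of organelle transport, had 0 counts at the short end in every library, which allows up to 3 counts in each, whereas their parents had between 2729 (Enc1, BNLx replicate 3) and 50051 counts (Camk2n1, BNLx replicate 1). The short ends of these 3 genes lay 1116, 1510 and 5032 bases upstream. That of Camk2n1 lay within 100 bases of the end of a reference transcript other than its parent, whose counts are not included. A count of 0 is thus that of the isoform and does not show that the place is unused.

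The largest shortenings among named genes past the count limit were 16183 bases in Cstf3, 14875 in Kcnv1, 14522 in Zbtb25 and 14305 in Lrrc40. Cstf3 encodes a subunit of the cleavage stimulation factor, itself part of the 3′-end machinery. Its short end (STRG.13638.2.1, chr3:94530586-94607887, plus strand) had 193, 23.8 and 78.4 counts in BNLx and 372, 47.1 and 84.8 in SHR, and its parent end 0 in every library. Lrrc40 likewise had 71.02 to 1292 counts at the short end and 0 at the parent. In this pair of Kcnv1, a modulatory potassium channel subunit, the counts were at the parent, with 15.6 to 1247, and the short end held 0.15 count in BNLx replicate 3 and 0 elsewhere. Over the 8 tested pairs of Kcnv1, 2 had the short end above and 4 the parent, with mean shares from 0% to 98.16%. Zbtb25, a zinc finger protein, had 111 to 497 counts at the parent and 0 to 49.6 at the short end, a ratio that did not pass the test (edgeR, adjusted p = 0.115). An exon of the opposite strand lay in the removed stretch of Cstf3, Zbtb25 and Lrrc40 but not of Kcnv1.

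Calls moved with the size of the shortening, and so did the chromosomes, since 741 of 1579, 747 of 1857, 236 of 780 and 75 of 224 isoforms in the 4 size classes below lay on chromosomes 2 to 9. The short end was above the parent in 34.97% of 1281 pairs shortened by 1000 bases up to 2000, 40.37% of 1548 up to 5000, 42.24% of 689 up to 10000 and 47.4% of 192 shortened by 10000 or more, and the parent above the short end in 22.95%, 21.06%, 11.9% and 9.375%. The share of isoforms with an opposite-strand exon in the removed stretch moved with it, at 20.01%, 32.26%, 40.9% and 61.16%. Pairs with such an exon had the short end above in 619 of 1155 (53.59%) and the parent above in 99 (8.571%), and pairs without in 836 (32.72%) and 621 (24.31%) of 2555. Within the pairs without an opposite-strand exon, the short end was above in 30.97%, 33.56%, 33.25% and 40.96% over the 4 size classes, the last of 83 pairs. On chromosomes 2 to 9, pairs without such an exon had the short end above in 301 (24.18%) and the parent above in 358 (28.76%) of 1245, and pairs with one in 101 (42.62%) and 37 (15.61%) of 237. On chromosomes 1 and 10 to 16, these counts were 535 (40.84%) and 263 (20.08%) of 1310, and 518 (56.43%) and 62 (6.754%) of 918. The part of such exons in the calls was not tested.

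**Figure D3:**
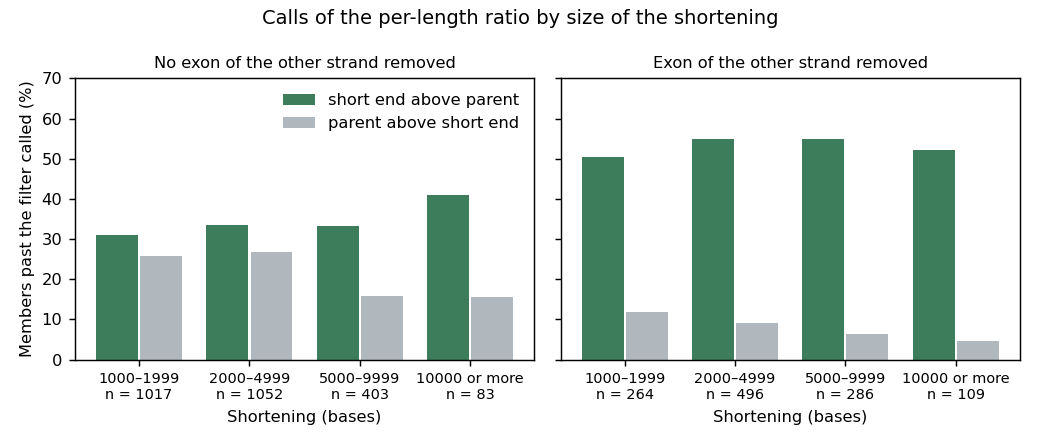
Percentage of pairs called with the short end above the parent (green) or the parent above the short end (grey) per length, by size of the shortening in bases, for pairs without and with an exon of another locus on the opposite strand in the removed stretch. With such an exon the green bars stand between 50.38% and 54.9% in each size class, and without one between 30.97% and 40.96%.

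Summed over pairs, with each transcript counted once, the short ends took 46.6%, 44.5% and 47.3% of counts in BNLx and 47.8%, 47.6% and 48.0% in SHR. The means were 46.1% ± 1.45 and 47.8% ± 0.205 (SD, n = 3), and the exact permutation test between strains gave p = 0.1, the smallest that 3 against 3 animals allow. All SHR values lay above all BNLx values over all chromosomes, whereas within each set of chromosomes the strains overlapped, with means of 34.7% ± 2.41 and 37.2% ± 0.784 on chromosomes 2 to 9 and 53.7% ± 1.1 and 54.7% ± 0.338 on the others (exact permutation p = 0.2 for both). By summed TPM the means were 62.3% ± 1.72 and 63.3% ± 1.21, the strains overlapped, and the exact permutation p was 0.5.

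Against the pairs shortened by less than 1000 bases, measured in the same libraries, the share by summed TPM was higher by 6.91 percentage points (SD 2.72), in 6 of 6 libraries, with an exact sign permutation p of 0.03125, the smallest that 6 libraries allow. By summed counts the difference was 1.18 points, with 3 of 6 libraries higher and an exact permutation p of 0.469. The direction differed between the sets of chromosomes: the TPM share was 5.38 points lower than in the less shortened pairs on chromosomes 2 to 9 (lower in 6 of 6 libraries) and 14.1 points higher on chromosomes 1 and 10 to 16 (higher in 6 of 6), each with an exact sign permutation p of 0.03125. Both sets of transcripts are fixed, so these p-values measure only how steady a difference was over the 6 libraries. They do not test whether long and short shortenings differ in general.

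**Figure D4:**
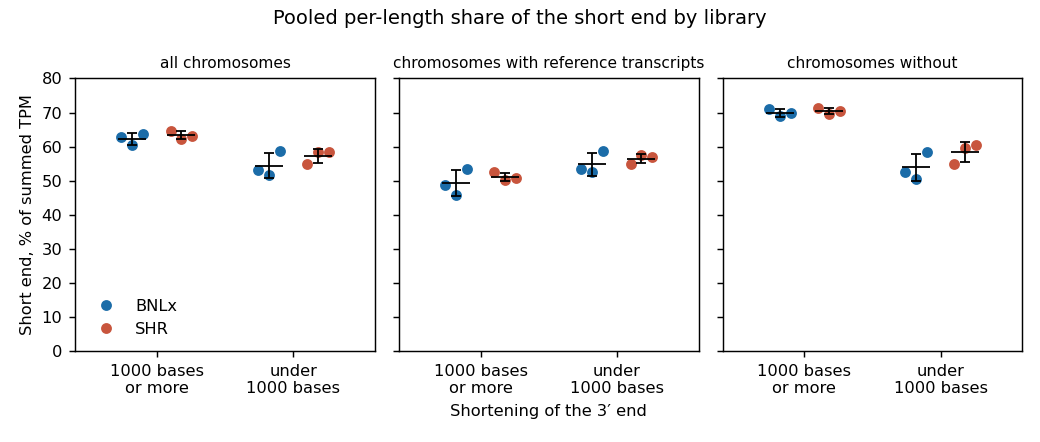
Short end as a percentage of summed TPM of short and parent ends (vertical axis), for pairs shortened by 1000 bases or more and by less, in all chromosomes and in the 2 sets. Points are libraries, bars are means with SD of 3 libraries per strain. Pairs shortened by 1000 bases or more lie between 60.35% and 64.58% over all chromosomes, between 45.95% and 53.35% on chromosomes with reference transcripts and between 68.89% and 71.44% on the others.

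Named genes were grouped by patterns in their symbols and are described by counts. Pairs of a gene share exons, and the groups were not compared by a test. Over all 992 tested pairs with a symbol, 264 had the short end above and 261 the parent. Of 23 tested ion channel pairs, 5 had the short end above and 13 the parent, and 8 of the 23 were pairs of Kcnv1. The 13 include 2 of 2 pairs of Cacna1c, an L-type calcium channel. Of 11 solute carrier pairs, 9 had the parent above and 1 the short end. The 9 include 6 of Slc4a10, a bicarbonate transporter, and 2 of Slc1a2, the main glutamate transporter of astrocytes, so that few genes make up the count. Cytoskeletal and motor proteins had the parent above in 8 of 11 pairs, among them both pairs of Kif1b, an axonal kinesin. Mitochondrial and ribosomal proteins had the short end above in 5 of 10 and the parent in 2, without 4 pairs of ribosomal S6 kinase genes that the pattern also took, and the 5 include Mrps35 (2 of 2), Mrps15 and Ndufs7. RNA-binding and splicing factors had 12 and 9 of 29, and 6 of these 12 were Srsf7. The 30 tested pairs of kinases, phosphatases and their regulators had 4 and 11, the 36 of small GTPases and their regulators 8 and 7, the 26 of the ubiquitin system 9 and 5, the 21 of zinc finger proteins 6 and 3, the 13 of vesicle proteins 5 and 2, the 10 of adhesion proteins 4 and 1, and the 4 of neurotransmitter receptors 1 and 1.

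Genes of the 3′-end machinery and its regulators were themselves among those with a shortened end. Of 24 listed cleavage and polyadenylation factors, 10 were found by symbol in the annotation and 3 had such an end, Cpsf2, Cstf3 and Ppp1cb, with 4 tested pairs, 1 with the short end above (Cstf3) and 1 with the parent above. In Ppp1cb, a catalytic subunit of protein phosphatase 1, the short end had 0 counts and the parent 2435 to 8887. Of 23 listed regulators of the choice of end, 13 were found and 5 had such an end, Celf1, Nova1, Ptbp2, Srsf7 and Tardbp, with 8 and 4 of 19 tested pairs called. Tardbp, which encodes the RNA-binding protein TDP-43, had all its pair's counts at the short end 2115 bases upstream (STRG.22866.4.1, chr5:165432166-165442048, minus strand), with 1844, 661 and 915 in BNLx and 2867, 1308 and 1289 in SHR, and an exon of the opposite strand in the removed stretch. The short end of Celf1, a regulator of splicing and mRNA decay, lay within 100 bases of the end of another reference transcript. The short isoform was at 0 in BNLx and in SHR replicate 1, and had 628 and 598 counts in SHR replicates 2 and 3. The 2 libraries with counts there were thus SHR replicates 2 and 3, which lay closest to each other across pairs. Nova1, a neuronal splicing regulator, had the parent above in both pairs, and the 6 pairs of Ptbp2, the neural polypyrimidine-tract-binding protein, had mean shares from 37.7% to 64.9% and no call.

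Of 30 listed brain genes with alternative 3′ untranslated regions, 16 were found and 7 had a shortened end, with 2 of 13 tested pairs above and 4 below the parent. The list includes genes that the study itself examined in these samples, among them Ap3b1, Sf3b1 and RGD1559441 of the 7. For such genes the list is no independent evidence. Map2, a dendritic microtubule-associated protein, and Sf3b1, a core splicing factor, had 0 counts at the short end in each library, and 4461 to 21231 and 874 to 5147 at the parent.

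The second question was whether the balance of the ends differed between the strains. In the paired edgeR fit, 0 of 3710 pairs passed an adjusted p of 0.05 (0.00% of all 9240 pairs), and the smallest adjusted p was 0.363. At an unadjusted p under 0.05 there were 114 (3.073%, against 3.39% of all pairs), with the ratio higher in SHR in 57 and lower in 57, and at 0.001 there were 11, in 9 loci, against 0.238% of all pairs. The 11 were 2 of 1482 pairs on chromosomes 2 to 9 and 9 of 2228 on the others. On leaving out BNLx replicates 1, 2 and 3 and SHR replicates 1, 2 and 3 in turn, the count of 114 became 107, 85, 148, 227, 89 and 78, and the count of 11 became 3, 3, 7, 6, 3 and 5. Over all pairs the shares ran from 2.43% to 7.23% and from 0.0442% to 0.317% in the same fits. limma on log2 ratios called 21 pairs with counts plus 0.5, 29 with TPM plus 0.1 and 23 with TPM plus 1 (0.566%, 0.782% and 0.620%), against 0.660%, 0.898% and 0.747% of all pairs, and 9 in all 3 settings. In 4 of these 9, 1 of the ends was at 0 in every library, so that the called difference was in the level of the other end. The parent of a short end of Pja2, a ubiquitin ligase, for example, had 17589, 6659 and 5886 counts in BNLx and 0 in SHR, with the short end at 0 throughout. This pair passed the count limit only through BNLx. The shares of the 2 strains did not overlap in 371 of 3710 pairs (10%), against 9.11% of all pairs. Without SHR replicate 1 and BNLx replicate 3, 0 pairs passed the adjusted threshold in edgeR, 406 of 3460 (11.7%) had an unadjusted p under 0.05, against 15.3% of all pairs, and 15 (0.434%) were at 0.001, against 0.537%.

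The pairs with the lowest p, chosen after their values were seen, are given here as values, since none passed the adjusted threshold for the ratio. In STRG.4796.1.1 (chr1:197964379-197983048, minus strand, no gene symbol, shortened by 1926 bases), the short end had 5228, 1812 and 2537 counts in BNLx and 2811, 1901 and 1909 in SHR, and the parent end 79.5, 16.45 and 19.2 in BNLx and 3244, 1792 and 1953 in SHR. The share of the short end was thus 99.05% to 99.5% for the BNLx animals, and for the SHR animals it was 57.7% to 62.6%. The log2 ratio was lower in SHR by an estimate of -6.69 ± 0.57 (edgeR, adjusted p = 0.363), while the summed counts of the pair gave a log2 difference of -0.08. In STRG.5697.3.2 (chr1:226435645-226496274, plus strand), the short end had 467, 231 and 433 counts in BNLx and 0, 0 and 0.91 in SHR. In STRG.36690.1.1 (chr10:40812820-40842080, plus strand) the reverse was seen, with 0 in each BNLx library and 806, 537 and 365 in SHR. In STRG.25342.2.1 (chr6:108392793-108415230, minus strand), the share was at most 2.33% in BNLx and at least 99.2% in SHR, but its counts in SHR were 2897, 115 and 94, so that SHR replicate 1 held most of them. Tested as single isoforms between strains, the short ends of STRG.36690.1.1 and STRG.5697.3.2 had adjusted p = 0.0224 and 0.0225 in edgeR. The parent of STRG.4796.1.1 had 0.00882 in the same test. No other end of these pairs passed 0.05. Each of the ends that passed met the count limit only through the strain where it was high.

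Among named genes, also chosen after seeing their values, Ssbp2, Faim2, Srsf6 and Gatb had the lowest p. Ssbp2, a single-stranded DNA-binding protein, had a short end 10204 bases upstream (STRG.7209.5.2, chr2:20416623-20702787, plus strand) with 135, 67.9 and 72.4 counts in BNLx and 0 in each SHR library, while the parent had 904, 302 and 480 and 1820, 398 and 894 (edgeR, adjusted p = 0.363). Faim2, an inhibitor of Fas-mediated apoptosis in neurons, had 85.2, 42.4 and 170 counts at a short end 1398 bases upstream in BNLx and 0 in SHR (edgeR, adjusted p = 0.606). The short end of Srsf6 that lay 1910 bases upstream (STRG.15204.3.1, chr3:159305345-159308758, plus strand) had a share of 52.1%, 34.3% and 63.9% in BNLx and 8.52%, 13.1% and 11.6% in SHR (log2 difference -3.03 ± 0.69, edgeR, adjusted p = 0.806). Gatb, a subunit of the mitochondrial glutamyl-tRNA amidotransferase, had shares of 16.5%, 5.88% and 60.9% in BNLx and 98.0%, 95.5% and 96.3% in SHR, from at most 215 counts. The strains did not overlap in any of these 4, and BNLx replicate 3 was nearest to SHR in Gatb and farthest from it in Faim2 and Srsf6.

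**Figure D5:**
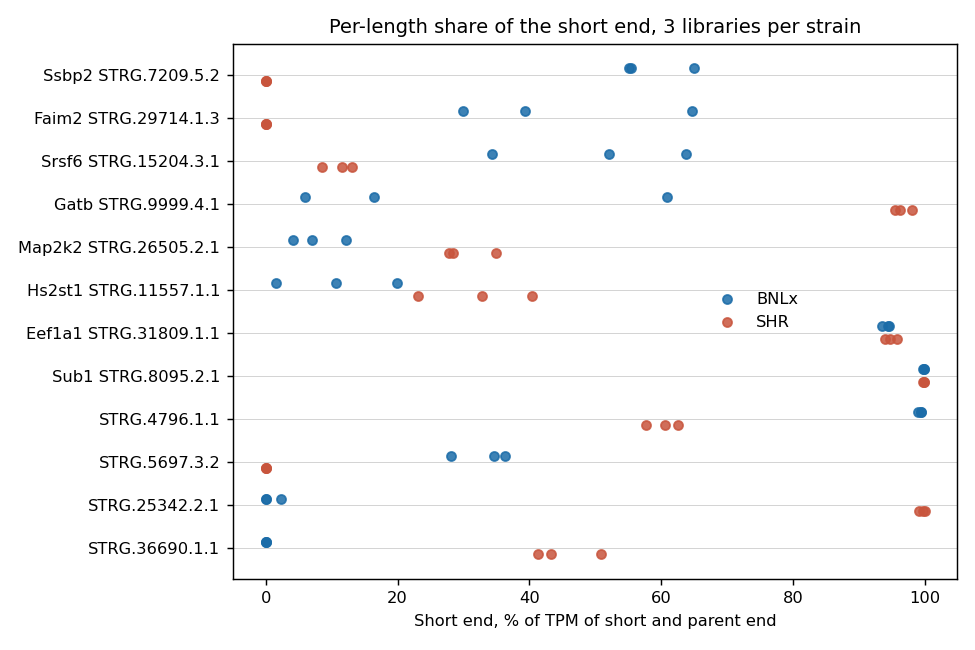
Share of the short end (horizontal axis, % of the TPM of short and parent end) in the 3 BNLx (blue) and 3 SHR (red) libraries for 12 pairs. The strains lie apart in the pairs chosen for a low p between strains (Ssbp2, Faim2, Srsf6, Gatb and the 4 without a symbol), and the strains overlap in Eef1a1 and Sub1. They also lie apart in Map2k2 (4.12% to 12.2% in BNLx, 27.9% to 35.0% in SHR) and Hs2st1 (1.52% to 19.8%, 23.1% to 40.5%). These 2 were named for the ratio of their ends, and neither passed the adjusted threshold between strains.

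As single isoforms, 2480 short isoforms passed the same count limit on their own, and 20 (0.8065%) were at an unadjusted edgeR p of 0.001 between strains, 8 higher and 12 lower in SHR. Over all 32348 isoforms the share was 1.00%. At an adjusted p of 0.05 there were 14 of the 2480 (0.5645%). The same count was 17 of 1802 (0.9434%) among isoforms shortened by less and 12 of 2396 (0.5008%) among those beyond their parent. On leaving out BNLx replicates 1, 2 and 3 and SHR replicates 1, 2 and 3 in turn, the 14 became 1, 0, 14, 7, 1 and 1. Without SHR replicate 1 and BNLx replicate 3 together, 311 of 2217 (14%) passed the adjusted threshold. The share over all isoforms at this adjusted threshold was not counted. At an unadjusted p of 0.001, DESeq2 called 106 of 2463 (4.30%), and 1166 of 32152 isoforms at large (3.63%). The edgeR count at a p of 0.001 was 32 of 2439 (1.31%) without BNLx replicate 3, against 1.27% of all isoforms. It was 49 of 2308 (2.12%) without SHR replicate 1, against 1.25%. On leaving out 1 of the other libraries, the shares ran from 0.618% to 0.793%, against 0.671% to 0.703% of all isoforms. Without both it was 158 of 2217 (7.13%), against 1129 of 29079 isoforms at large (3.88%), and 12 of the 20 were among the 158. SHR replicate 1 and BNLx replicate 3 stand apart in these same data, so this rise and the rise to 311 are no independent support. The direction depended on the libraries, with 13 higher and 6 lower in SHR without BNLx replicate 1, 6 and 9 without BNLx replicate 2, 20 and 12 without BNLx replicate 3, 27 and 22 without SHR replicate 1, 1 and 13 without SHR replicate 2, 2 and 15 without SHR replicate 3, and 125 and 33 without SHR replicate 1 and BNLx replicate 3 together. Fitting the replicate number as a block left 2. Directions and the block fit were not counted over all isoforms.

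Named short isoforms at this threshold were those of Dut, RGD1559441, Srsf6, Ssbp2, Ogfrl1 and Rtel1. Dut encodes the enzyme that removes dUTP from the nucleotide pool. Its short end, 1469 bases upstream and within 100 bases of a reference end (STRG.14123.2.1, chr3:117514444-117525486, plus strand), had 448, 137 and 175 counts in BNLx and 0 in each SHR library, at least 113-fold lower when 3 counts are allowed in each library (edgeR, adjusted p = 0.0193). Its parent had 194, 71.95 and 74.97 counts in BNLx and 0 in SHR, so that both ends of the pair were lower in SHR. RGD1559441, a gene that the study itself examined in these samples and so no independent evidence, had a short end with 1539, 557 and 603 counts in BNLx and 829, 316 and 373 in SHR, a log2 difference of -1.48 ± 0.15 (edgeR, adjusted p = 0.0325). The short ends of Ssbp2 and Srsf6 were lower in SHR (edgeR, adjusted p = 0.0427 for both), at least 45.1-fold in Ssbp2 and with a log2 difference of -2.75 ± 0.33 in Srsf6. The summed counts of the same pairs gave adjusted p = 0.985 and 0.661 in edgeR. The short isoforms of Dut and Ssbp2 passed the count limit only through BNLx, where they were high, so the limit itself kept them for their level in 1 strain.

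The other 2 were higher in SHR. Ogfrl1 had 0 counts at its short end, 9978 bases upstream, in BNLx and 152, 151 and 195 in SHR, at least 33.4-fold higher (edgeR, adjusted p = 0.0703). This isoform passed the count limit only through SHR. Rtel1, a helicase that maintains telomeres, had 279, 67.85 and 72.1 counts in BNLx and 872, 393 and 454 in SHR, a log2 difference of 1.56 ± 0.24 (edgeR, adjusted p = 0.0853), and an exon of the opposite strand lay in the stretch removed from it. Among fits that left out 1 library, Dut and RGD1559441 stayed at the threshold in each, Ssbp2 lost it without any 1 BNLx library, Ogfrl1 without BNLx replicate 1 and without any 1 SHR library, and Rtel1 without any library other than BNLx replicate 1. The short isoform of Srsf6 was not followed singly in these fits.

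The estimates of single pairs varied between animals of the same strain. Between BNLx replicates 1 and 2, the share of the short end differed by a median of 1.52 percentage points, and by over 50 points in 182 of 3525 pairs (5.163%). Between SHR replicates 2 and 3 it differed by over 50 points in 184 of 3615 (5.09%). The same figure was 288 of 3470 (8.3%) between BNLx replicates 2 and 3 and 137 of 3615 (3.79%) between BNLx replicate 1 and SHR replicate 1, the lowest of the 15 comparisons of 2 libraries, across strains.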

How the data were processed

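PolyA-selected RNA was sequenced from whole brain of 3 BNLx and 3 SHR rats. According to the study's methods, reads were trimmed with cutadapt and aligned to rn6 with HISAT2, transcripts were assembled with StringTie (1.3.5 in the submitters' processing notes) guided by Ensembl, aptardi added 3′-ends, and RSEM quantified all isoforms. The authors deposited expected counts, TPM and effective lengths per isoform, and the annotation. The library kit does not mark strand, and RSEM divides reads between nested ends by a model, so that expected counts of a pair are estimates that trade off against each other.

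The 2 ends of each pair were placed in 1 edgeR 4.0.16 quasi-likelihood fit (R 4.3.3) of rounded expected counts over 12 columns, with terms for library, end and end by strain and an offset for effective length, fitted over all aptardi pairs. Single isoforms were tested with edgeR and TMM factors at an unadjusted p of 0.001, where the count limit and the threshold are the study's and the study's own test was DESeq2. limma 3.58.1 on log2 ratios and DESeq2 1.42.0 were alternatives. Fits were tested on simulated data. SE is the log2 estimate divided by the root of the F statistic. Replicate numbers name animals and were not used as pairs in the main fits. Whole libraries were summed, with each transcript once, for the share of short ends, and compared by exact two-sided permutation tests. Replicates are separate animals, so p-values measure the spread between these animals.

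The members and gene lists were chosen with earlier results of these data known. Genes were named by rule: up to 6 per direction by per-length ratio among called pairs with both ends above 0 in each library and a mean of at least 100 counts, the 4 largest shortenings, the 4 with most counts, members of the 3′-end lists, and up to 6 short isoforms by p between strains. Pairs named for the strain ratio were chosen after their values were seen. A deposited table of gene counts was not used. Sequences at the ends are not shown, because no genome of build rn6 was used here. Values of a few genes are not reported here.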

Additional observations from a re-analysis of the deposited data

How the results depend on the processing

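No pair passed an adjusted p of 0.05 for the strain difference of the ratio in edgeR under any filter, leave-one-out fit, common dispersion, distinct ends, chromosome set, an adjusted p of 0.1 or a limit of 500 or 2000 bases, against 21, 29 and 23 pairs by limma on counts, on TPM plus 0.1 and on TPM plus 1, and 11 at an unadjusted p of 0.001. Short ends above the parent numbered 716 where each end had to pass the count limit alone, 402 on chromosomes with reference transcripts, 836 among pairs without an opposite-strand exon, and 747 to 1170 on leaving out 1 library. Parents above the short end numbered 96 where each end had to pass alone, 1337, 1119 and 1118 by the 3 limma settings, 395 and 325 on chromosomes with and without reference transcripts, 335 with both ends seen, and 35 to 491 on leaving out 1 library. Short isoforms between strains numbered 106 by DESeq2, 7 and 13 on the 2 sets of chromosomes, 158 without SHR replicate 1 and BNLx replicate 3 together, and 14 to 49 on leaving out 1 library. The last were 0.618% to 2.12% of those tested, against 0.671% to 1.27% of all isoforms. With the replicate block the same count was 2, the short end was above the parent in 1070 pairs and below it in 508, and no strain ratio passed. Deviations of same-numbered animals from their strain means correlated at 0.278, -0.0354 and 0.145 across pairs, and those of animals with different numbers at -0.291 to 0.215. Deviations of 3 animals from their mean are tied to each other, so these values cannot decide whether the numbers pair the animals. The share of short ends against pairs shortened by less than 1000 bases differed by 1.18 points in counts, 6.91 in summed TPM, 8.80 in median shares, -6.52 in counts on chromosomes with reference transcripts and -2.02 with parents summed once per pair, the last 2 being reversed. The chromosome sets, the opposite-strand and both-ends-seen subsets and sums per pair were chosen after seeing the data. SHR replicate 1 and BNLx replicate 3 stand apart in these same data, so counts without them are no independent check. The causes of these changes were not tested. For named pairs, settings that lost the call numbered 69 of the short-to-parent ratio and 19 of the short isoform between strains (Camk2n1, Enc1, Myo5a, Map2, Sf3b1, Ppp1cb and Tardbp lost theirs without any 1 of BNLx replicates 1 and 2 and SHR replicates 2 and 3), 10 and 15 passed it only under the alternative for the 2 ratios, and none turned direction. BNLx replicates 2 and 3 held the fewest counts, 11747048 and 12591827, which limits the precision of pairs with few counts.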
